A study of Mus musculus with 48 samples.

Results

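The genes of later neutrophil granule and S100 proteins were followed in mouse 32D cells that carry the p210 BCR/ABL oncoprotein. The 10 genes were Lcn2, Ltf, Camp, Ngp, Mmp9 and Lyz2, whose products are stored in granules or secreted, S100a8 and S100a9, Stfa3, and Hp. They were chosen by name, with earlier results of these data known. The platform annotation pairs them with 11 of the 45037 probe sets of the Affymetrix MOE430_2 array, 1 for each gene and 2 for Mmp9. Of these, 10 probe sets of 9 genes were bright enough to be tested, and that of Camp was not.

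32D is a myeloid progenitor line that grows in interleukin 3, and BCR/ABL is the fusion kinase of chronic myeloid leukaemia. One line got the MigRI retroviral vector alone. The others got MigRI with a C/EBPα-ER fusion, in which an estrogen receptor domain lets 4-hydroxytamoxifen (4-HT) switch C/EBPα on. The 3 fusions were wild type (WT), K298E, described in the labels as deficient in DNA binding, and Δ(177-191), described there as deficient in the interaction with CDK2 and CDK4. RNA of all 4 lines was taken before 4-HT (0 h) and 6, 9 and 12 h after it, with 3 arrays at each time, which makes 16 groups and 48 arrays. The vector line received 4-HT too, so no culture was followed over time without it, and 1 line stands for each construct. The labels call the arrays triplicates in one place and separate experiments in another, so the spread behind each p-value may be technical.

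C/EBPα is a transcription factor needed for the step from myeloid progenitors to granulocytes. In normal marrow, neutrophil proteins are made in waves: the enzymes of primary granules first, the proteins of secondary and tertiary granules later, and the cytosolic pair S100A8 and S100A9 in large amounts in maturing neutrophils. Several genes of the later wave are known targets of C/EBP factors, and Hp is known as a C/EBP-responsive acute phase gene of the liver.

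Values are the deposited MAS5 signals, which measure the brightness of a probe set on a linear scale, and changes are differences of log2(signal + 3) from 1 linear model over all 48 arrays (limma). A change passed at a two-sided adjusted p under 0.05 (Benjamini-Hochberg over all 27167 probe sets tested). A change is given ± its standard error and a mean signal ± the SD over 3 arrays. The added 3 shrinks the changes of dim genes, and those against a signal near 0 depend on the added value. The median signal of an array was 11 to 19 and the ratio of 3' to 5' Gapdh control probe sets 0.715 to 0.880. The Esr1 probe set 1421244_at, the brightest of that gene over the 48 arrays, was taken to read the fusion's receptor part. Vector arrays at 0 h lay at 17 to 19 on it. Group means of the fusion lines at 0 h were 1439 (K298E), 2475 (WT) and 3263 (Δ(177-191)). At 12 h they were 1006, 2173 and 3349 in the same order, with K298E at 860 at 9 h. The fusion lines were therefore not equal in this signal, and its part in differences between constructs was not tested. Of the markers for the labelled cell type, Ptprc, Csf2rb and Myb were present at 0 h in all lines (group means of 1559 to 2978, 1361 to 2146 and 768 to 2309), while Kit (7.33 to 12.3) and Cd34 (1.67 to 5) were near the floor. These arrays read whole cultures, in which a change in the share of cells and a change in RNA per cell cannot be told apart.

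The promoters show the stretch of DNA before the start of members that rose after 4-HT (Lcn2) and of 5 of the members that were high in the Δ(177-191) line at 0 h (S100a8, S100a9, Ngp, Lyz2 and Stfa3), the last without a match. RefSeq promoters were at hand for 8 of the 10 genes, all but Mmp9 and Hp, and the 250 bases before the annotated start were read (build GRCm38.p6, 5′ to 3′ on the gene's strand). Capitals mark matches to the C/EBP pattern TTNNGNAA on either strand.
Lcn2, chr2:32387740-32387989, minus strand: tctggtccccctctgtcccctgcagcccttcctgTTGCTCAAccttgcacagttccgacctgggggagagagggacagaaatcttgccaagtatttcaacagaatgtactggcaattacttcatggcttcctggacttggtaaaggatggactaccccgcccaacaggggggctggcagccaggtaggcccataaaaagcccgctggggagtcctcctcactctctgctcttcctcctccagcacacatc
S100a8, chr3:90668821-90669070, plus strand: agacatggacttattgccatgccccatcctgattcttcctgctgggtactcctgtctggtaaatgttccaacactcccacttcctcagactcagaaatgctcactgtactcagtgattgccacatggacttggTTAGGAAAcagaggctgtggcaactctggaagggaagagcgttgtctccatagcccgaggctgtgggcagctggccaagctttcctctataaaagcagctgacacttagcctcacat
S100a9, chr3:90695722-90695971, minus strand: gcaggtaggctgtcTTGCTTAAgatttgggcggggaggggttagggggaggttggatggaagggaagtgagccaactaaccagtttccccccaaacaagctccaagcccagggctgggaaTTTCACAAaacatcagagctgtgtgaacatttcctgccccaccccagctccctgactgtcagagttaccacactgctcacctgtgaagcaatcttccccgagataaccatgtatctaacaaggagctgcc
Ngp, chr9:110419558-110419807, plus strand: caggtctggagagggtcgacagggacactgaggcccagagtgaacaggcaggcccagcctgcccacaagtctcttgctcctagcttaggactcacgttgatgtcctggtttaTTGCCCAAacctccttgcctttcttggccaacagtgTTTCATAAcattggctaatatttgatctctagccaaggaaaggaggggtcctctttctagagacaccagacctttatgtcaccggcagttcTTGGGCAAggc
Lyz2, chr10:117282273-117282522, minus strand: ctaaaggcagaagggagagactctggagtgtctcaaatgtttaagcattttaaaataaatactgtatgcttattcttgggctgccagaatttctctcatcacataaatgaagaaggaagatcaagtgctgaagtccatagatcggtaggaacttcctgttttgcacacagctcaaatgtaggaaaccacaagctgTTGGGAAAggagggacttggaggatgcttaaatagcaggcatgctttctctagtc
Stfa3, chr16:36455393-36455642, minus strand: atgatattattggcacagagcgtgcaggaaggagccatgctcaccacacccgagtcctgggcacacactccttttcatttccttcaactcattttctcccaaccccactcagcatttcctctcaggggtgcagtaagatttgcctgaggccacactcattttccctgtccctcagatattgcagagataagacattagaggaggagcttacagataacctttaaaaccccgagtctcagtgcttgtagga
The pattern TTNNGNAA, searched on both strands, was in 6 of the 8 members' promoters and in 36.8% of the 32851 promoters searched, at the same length. Its stricter form TTGCNNAA, every match of which is also a match of the first, was in 4 of 8, Lcn2, S100a9, Ngp and Ltf, and in 9.56% of all. The PU.1 core GAGGAA was in 4 of 8 and in 23.3% of all. These shares leave out the promoters of a chromosome that holds no member. The Lcn2 match begins 216 bases before the start, at position -216, that of Lyz2 at -55, that of S100a8 at -117, those of S100a9 at -236 and -130, and those of Ngp at -138, -102 and -11. The stricter pattern was thus held by a gene that rose in WT and Δ(177-191) cells (Lcn2) and by genes that fell after 4-HT, Ngp in Δ(177-191), S100a9 in WT and Δ(177-191), and Ltf in WT, Δ(177-191) and vector cells. A match is a description of the sequence, not a binding site.

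Only 2 of the 10 members, Lcn2 and Hp, rose after 4-HT in WT cells. Both also rose in Δ(177-191) cells. In K298E cells both passed upward from 0 h at 6 h and no longer passed at 9 and 12 h. The Hp signals there at 6 h were 6 to 11, near the floor, and the Hp change relative to vector did not pass. The other tested members either fell or did not pass in WT and Δ(177-191) cells at 12 h. As background to the calls at single times, 26.1% of all probe sets tested passed at 6 h and 24.9% at 9 h in WT, 24.6% and 26.8% in Δ(177-191), 9.23% and 3.81% in K298E and 15.5% and 14.9% in vector cells. From 6 to 12 h 11.5%, 14.8%, 8.02% and 6.88% passed in these lines. Before 4-HT, the Δ(177-191) line stood above the vector line on all 9 tested genes, by differences of 2.02 ± 0.39 (Mmp9) to 7.26 ± 0.31 (S100a9), where 10.4% of probe sets were higher and 23.0% passed in either direction. One of the 9, Stfa3, was bright enough to be tested in Δ(177-191) cells alone.

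**Figure D1:**
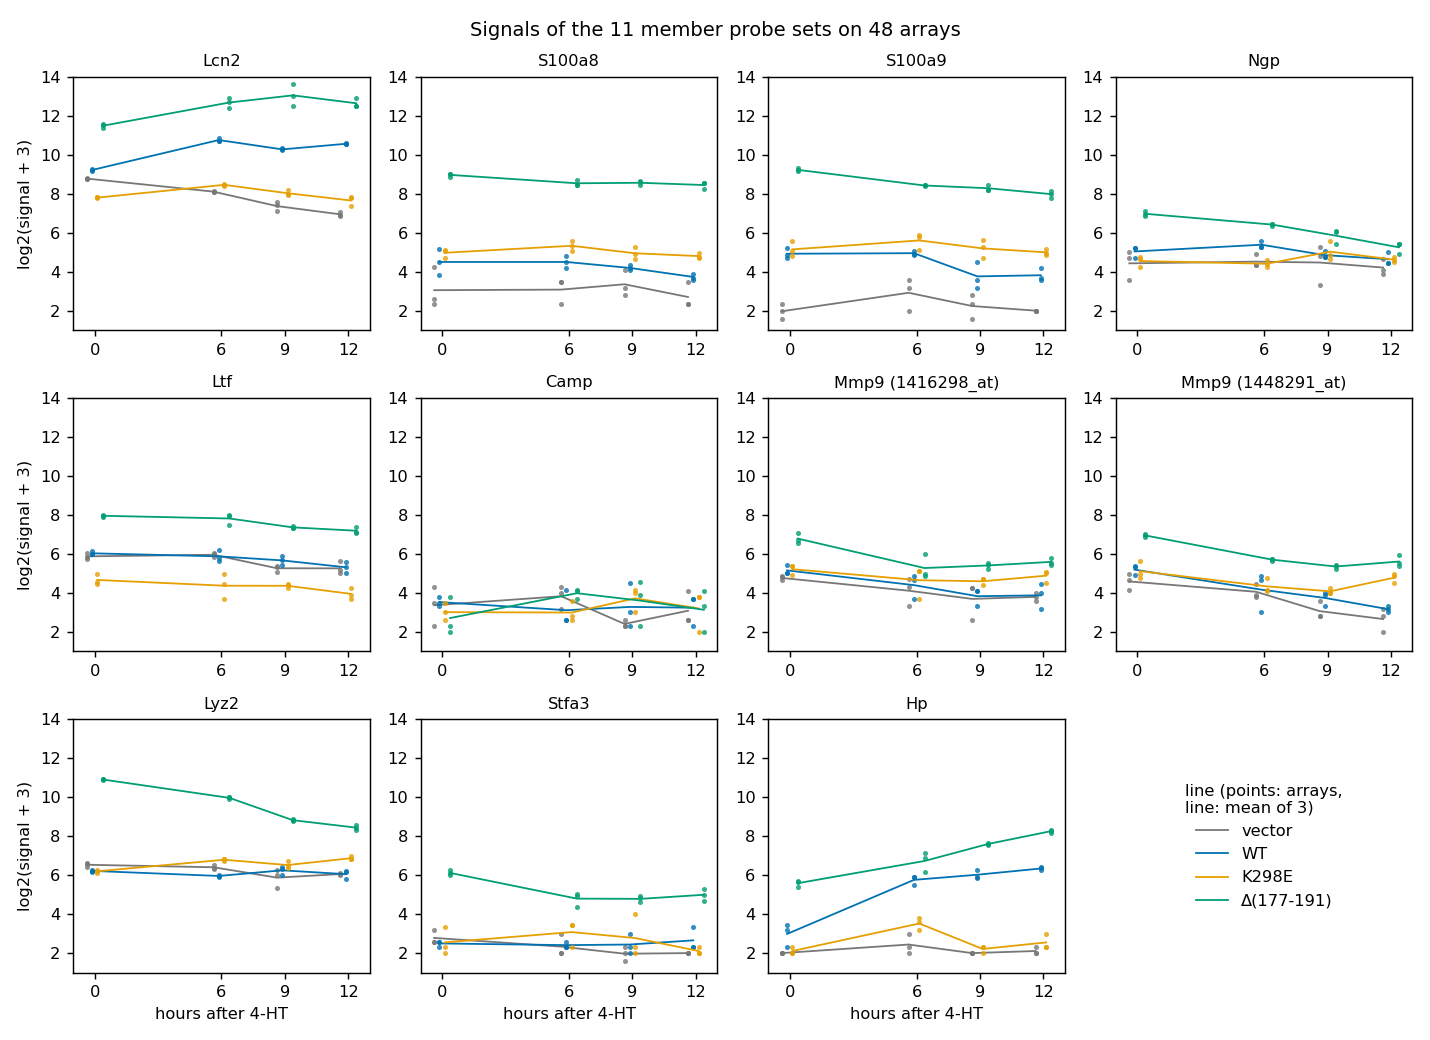
Each panel shows 1 probe set, with the log2(signal + 3) of every array against hours after 4-HT; points are arrays and lines join the means of 3 arrays. The Δ(177-191) line lies highest in every panel but that of Camp, and Lcn2 and Hp are the 2 genes whose WT and Δ(177-191) lines climb.

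Lcn2 encodes lipocalin 2, a secondary granule protein that binds bacterial siderophores. Its gene lies on chromosome 2 at 32384637 to 32387739 (GRCm38.p6). In WT cells the signals were 575, 608 and 598 at 0 h, 1829, 1682 and 1687 at 6 h, 1282, 1245 and 1197 at 9 h and 1545, 1490 and 1505 at 12 h. Every treated WT array was above every WT array at 0 h, and the level was highest at 6 h. In vector cells the signals fell, from 432, 436 and 443 at 0 h through 272, 273 and 275 at 6 h and 188, 167 and 136 at 9 h to 113, 119 and 129 at 12 h, with no overlap between any pair of times. In K298E cells they were 223, 214 and 224 at 0 h, 335, 361 and 352 at 6 h, 285, 242 and 250 at 9 h and 223, 217 and 162 at 12 h, so that the arrays at 6 h stood above all others of that line. Those of Δ(177-191) cells were 3057, 2930 and 2652 at 0 h, 6812, 5462 and 7701 at 6 h, 12538, 8284 and 5919 at 9 h and 5748, 5876 and 7824 at 12 h. The 3 arrays at 9 h differed from each other more than those of any other group, and all treated arrays were above those at 0 h.

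From its own 0 h, Lcn2 changed in WT cells by 1.54 ± 0.14 at 6 h, 1.06 ± 0.14 at 9 h and 1.35 ± 0.14 at 12 h (limma adjusted p = 1.5e-11, 1.26e-07 and 4.59e-10, n = 3 per group). The values in Δ(177-191) cells were 1.20 ± 0.14, 1.56 ± 0.14 and 1.16 ± 0.14 (adjusted p = 7.45e-09, 7.6e-12 and 1.55e-08). In K298E cells the rise at 6 h passed (0.66 ± 0.14, adjusted p = 0.00133), those at 9 and 12 h did not (0.23 ± 0.14 and -0.15 ± 0.14, adjusted p = 0.51 and 0.829), and the level at 12 h was below that at 6 h (-0.80 ± 0.14, adjusted p = 0.000127). Vector cells fell by 0.67 ± 0.14, 1.41 ± 0.14 and 1.84 ± 0.14 (adjusted p = 0.000586, 5.9e-10 and 5.36e-13). The change of a fusion line minus that of vector cells, called the relative change here, therefore holds the vector fall as well: at 12 h it was 1.69 ± 0.20 in K298E cells (adjusted p = 1.48e-07), in which Lcn2 itself was not above its 0 h level. The mean change over the 3 times was larger in WT than in K298E cells by 1.07 ± 0.17 (adjusted p = 5.71e-06). Between WT and Δ(177-191) cells it differed by 0.01 ± 0.17 (adjusted p = 0.983), with a 95% interval of -0.33 to 0.35.

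Hp encodes haptoglobin, a plasma protein that binds free haemoglobin and is also stored in neutrophil granules. It lies on chromosome 8 at 109575128 to 109579172. In WT cells its signals were 2, 6 and 8 at 0 h, 57, 56 and 42 at 6 h, 58, 55 and 75 at 9 h and 82, 79 and 74 at 12 h, and the treated arrays did not overlap those at 0 h. Those of Δ(177-191) cells were 39, 50 and 47 at 0 h, 136, 115 and 70 at 6 h, 197, 183 and 194 at 9 h and 317, 309 and 289 at 12 h, without overlap between any of these times. In K298E cells they were 2, 1 and 1 at 0 h, 9, 11 and 6 at 6 h, 2, 1 and 2 at 9 h and 2, 5 and 2 at 12 h, and in vector cells no array exceeded 5. Hp was thus near the floor of the signal in vector and K298E cells throughout.

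Hp rose in WT cells by 2.78 ± 0.28, 3.04 ± 0.28 and 3.36 ± 0.28 at 6, 9 and 12 h (limma adjusted p = 1.15e-10, 1.01e-11 and 5.8e-13, n = 3 per group). Its rise in Δ(177-191) cells was 1.14 ± 0.28, 2.01 ± 0.28 and 2.68 ± 0.28 (adjusted p = 0.00157, 1.91e-07 and 2.49e-10). The level at 12 h was above that at 6 h in Δ(177-191) cells (1.54 ± 0.28, adjusted p = 7.7e-05), while in WT cells this step was 0.58 ± 0.28 (adjusted p = 0.206); the difference between the lines in this step was not tested. In K298E cells the change at 6 h passed (1.41 ± 0.28, adjusted p = 0.000389), but its relative change did not (0.97 ± 0.40, adjusted p = 0.405, where 0.942% of probe sets passed), and these signals were 11 or less. The mean change in WT cells was larger than in K298E cells by 2.41 ± 0.32 (adjusted p = 3.59e-07) and larger than in Δ(177-191) cells by 1.11 ± 0.32 (adjusted p = 0.01). This last difference rests on the low 0 h signals of WT cells: with 12 or 32 added in place of 3 it was 0.36 and -0.14 (adjusted p = 0.217 and 0.533). It also lost its call without WT replicate 1, Δ(177-191) replicate 2 or Δ(177-191) replicate 3, left out at all times, with values of 0.76, 1.06 and 0.99.

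**Figure D2:**
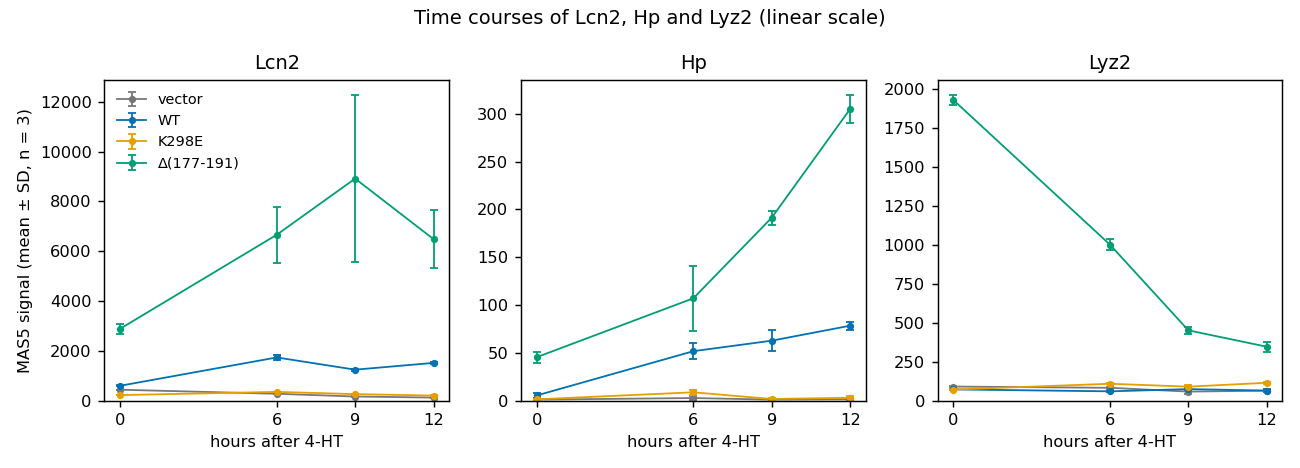
The 3 panels show the MAS5 signal of Lcn2, Hp and Lyz2 on a linear axis against hours after 4-HT, as mean ± SD of 3 arrays per line. Lcn2 and Hp climb in Δ(177-191) and WT cells, and Lyz2 falls from 1929 to 345.7 in Δ(177-191) cells while the other lines stay at or below 114.3.

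Lyz2 encodes lysozyme M, a bactericidal enzyme of granulocytes and macrophages, and lies on chromosome 10 at 117277541 to 117282272. Its signals in Δ(177-191) cells were 1935, 1958 and 1895 at 0 h, 960, 1015 and 1026 at 6 h, 431, 448 and 473 at 9 h and 314, 345 and 378 at 12 h. No 2 of these times overlapped, and the 12 h arrays were still above every array of the other lines, whose highest was 122. In K298E cells the signals were 71, 66 and 75 at 0 h, 109, 111 and 104 at 6 h, 80, 85 and 103 at 9 h and 122, 111 and 110 at 12 h, all above those at 0 h. In vector cells they went from 83, 92 and 95 at 0 h to 66, 61 and 64 at 12 h, and in WT cells from 70, 73 and 72 to 72, 68 and 52.

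The fall of Lyz2 in Δ(177-191) cells was -0.95 ± 0.13, -2.09 ± 0.13 and -2.47 ± 0.13 at 6, 9 and 12 h (limma adjusted p = 1.52e-07, 7.27e-17 and 3.18e-19, n = 3 per group). In WT cells no time passed (-0.17 ± 0.13 at 12 h, adjusted p = 0.402), and the mean changes of the 2 lines differed by 1.70 ± 0.15 (adjusted p = 5.67e-12). In K298E cells Lyz2 rose by 0.67 ± 0.13 at 12 h (adjusted p = 0.00127), and the mean change in WT cells was lower than there by 0.66 ± 0.15 (a difference of -0.66, adjusted p = 0.00143). Without K298E replicate 1 or replicate 2 the rise in K298E cells was 0.63 and 0.65, with adjusted p of 0.0524 and 0.0517. In vector cells Lyz2 changed by -0.48 ± 0.13 at 12 h (adjusted p = 0.00817). Without vector replicate 2 this was -0.43 (adjusted p = 0.104).

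The neighbouring lysozyme gene Lyz1 is close to Lyz2 in sequence, so probes may read both; it was added after its values were seen. A Lyz1 probe set whose suffix (_x_at) marks probes shared between transcripts, 1436996_x_at, went from 2195 ± 26.5 at 0 h to 393 ± 15.0 at 12 h in Δ(177-191) cells, and 1439426_x_at from 934 ± 506 to 91.0 ± 10.4. The third, 1450822_at, stayed at group means of 17.3 or less. The 2 probe sets with shared probes moved as Lyz2 did, and the one without that suffix stayed near the floor.

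S100a8 and S100a9 encode the calcium-binding proteins that form calprotectin, and they lie beside each other on chromosome 3, at 90669071 to 90670034 and 90692630 to 90695721. In Δ(177-191) cells the S100a9 signals were 599, 568 and 627 at 0 h, 343, 337 and 343 at 6 h, 353, 293 and 286 at 9 h and 280, 254 and 219 at 12 h. Those of S100a8 were 519, 470 and 509 at 0 h, 350, 348 and 413 at 6 h, 380, 406 and 344 at 9 h and 374, 299 and 373 at 12 h. For both genes all treated arrays of this line were below every array at 0 h, and all were above every array of the other lines. In vector cells S100a9 did not exceed 9 and S100a8 did not exceed 16. At 0 h the WT arrays lay at 23, 34 and 26 for S100a9 and 11, 33 and 20 for S100a8, and the K298E arrays at 45, 25 and 30 and at 32, 23 and 31.

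At 0 h S100a9 was above vector in WT, K298E and Δ(177-191) cells by 2.95 ± 0.31, 3.18 ± 0.31 and 7.26 ± 0.31 (limma adjusted p = 4.19e-09, 1.03e-09 and 1.65e-22, n = 3 per group). S100a8 was above vector by 1.45 ± 0.35, 1.92 ± 0.35 and 5.92 ± 0.35 (adjusted p = 0.00808, 0.000263 and 6.42e-18). These sizes depend on the added 3, since vector signals of S100a9 at 0 h were 1, 0 and 2: with 32 added the S100a9 differences were 0.85, 0.97 and 4.25 in WT, K298E and Δ(177-191) cells, all still past the threshold. The S100a8 difference in WT cells lost its call without WT replicate 2 (1.11) and without vector replicate 3 (1.08).

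After 4-HT S100a9 fell in Δ(177-191) cells, with -0.80 ± 0.31 at 6 h (adjusted p = 0.0563), -0.94 ± 0.31 at 9 h (adjusted p = 0.0204) and -1.25 ± 0.31 at 12 h (adjusted p = 0.00192). In WT cells it fell too, by 1.16 ± 0.31 at 9 h (adjusted p = 0.004) and 1.10 ± 0.31 at 12 h (adjusted p = 0.00624), at signals of 6 to 20. Without WT replicate 3 the adjusted p at 12 h was 0.0514, with a value of -1.08. S100a8 was at -0.52 ± 0.35 in Δ(177-191) cells and -0.77 ± 0.35 in WT cells at 12 h (adjusted p = 0.329 and 0.109). In the fit of the Δ(177-191) arrays alone the same value of S100a8 passed (adjusted p = 0.0017). In K298E cells neither passed at any time, with changes of -0.17 (S100a8 at 12 h) to 0.46 (S100a9 at 6 h).

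Ltf encodes lactoferrin, the iron-binding protein of secondary granules, and Ngp neutrophilic granule protein, a member of the cystatin superfamily; both lie on chromosome 9, as does Camp. The Ltf signals in Δ(177-191) cells were 252, 239 and 248 at 0 h and 163, 138 and 131 at 12 h. Those in WT cells were 68, 60 and 60 at 0 h and 45, 30 and 37 at 12 h, in vector cells 63, 54 and 51 and then 33, 46 and 29, and in K298E cells 21, 28 and 19 and then 16, 12 and 10. In every line the 12 h arrays lay below those at 0 h. The change of Ltf at 12 h was -0.77 ± 0.21 in Δ(177-191), -0.72 ± 0.21 in WT, -0.62 ± 0.21 in vector and -0.71 ± 0.21 in K298E cells (limma adjusted p = 0.004, 0.00729, 0.0396 and 0.0643, n = 3 per group). The relative change was -0.10 ± 0.29 in WT, with a 95% interval of -0.70 to 0.49. Leaving out 1 replicate of a line ended the call of Ltf in Δ(177-191) cells (without replicate 3, -0.70), in WT cells (without replicate 2, -0.61) and in vector cells (without replicate 1 or 3, -0.49 and -0.55), and gave one in K298E cells (without replicate 1, -0.90). Median centring and quantile normalization also ended the vector call.

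The Ngp signals in Δ(177-191) cells were 115, 134 and 120 at 0 h, 84, 79 and 85 at 6 h, 62, 66 and 40 at 9 h and 40, 27 and 40 at 12 h. The 0, 6 and 9 h arrays did not overlap, while the lowest 9 h array equalled the highest at 12 h. At 12 h the signals lay within the range of the other lines over all times, 7 to 45. Ngp fell in this line by 1.12 ± 0.33 at 9 h and 1.72 ± 0.33 at 12 h (limma adjusted p = 0.00717 and 4.92e-05, n = 3 per group). It passed at no time in the other lines. The relative change at 12 h was -1.51 ± 0.46 (adjusted p = 0.0166), and the mean change differed from WT by 1.05 ± 0.38 (adjusted p = 0.0415). Without vector replicate 2 the relative change was -0.87 and without Δ(177-191) replicate 2 it was -1.27 (adjusted p = 0.131 and 0.117). The difference from WT lost its call without any 1 replicate of either line, at 0.94 to 1.20.

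Mmp9 encodes gelatinase B, the protease of tertiary granules, and lies on chromosome 2. Its 2 probe sets had the same sign in every own change at 12 h, but not in the relative change of Δ(177-191) cells at 12 h (-0.22 on 1416298_at and 0.59 on 1448291_at), which passed on neither. On 1448291_at the signals in Δ(177-191) cells were 115, 125 and 123 at 0 h and 59, 43 and 38 at 12 h, in WT cells 37, 38 and 27 and then 7, 6 and 5, and in vector cells 28, 22 and 15 and then 1, 6 and 4. In K298E cells they were 24, 47 and 28 at 0 h and 20, 26 and 28 at 12 h, the only line whose arrays overlapped between these times. The change at 12 h on this probe set was -1.34 ± 0.34 in Δ(177-191), -2.03 ± 0.34 in WT and -1.93 ± 0.34 in vector cells (limma adjusted p = 0.00189, 5.78e-06 and 3.67e-05, n = 3 per group) and -0.34 ± 0.34 in K298E cells (adjusted p = 0.834). On 1416298_at it was -1.20 ± 0.39 in Δ(177-191) and -1.28 ± 0.39 in WT cells (adjusted p = 0.0184 and 0.011) and -0.97 ± 0.39 in vector cells (adjusted p = 0.0971). The WT and vector signals of 1448291_at at 12 h were 7 or less, so the sizes of these falls depend on the added 3. Over 15 alternative settings the smallest falls on it were -0.79 in WT and -0.58 in vector cells, against -0.97 in Δ(177-191) cells. The calls on 1416298_at were lost without Δ(177-191) replicate 2 (-0.97) or replicate 3 (-1.29) and without WT replicate 3 (-0.79). No relative change of Mmp9 passed in WT or Δ(177-191) cells. In K298E cells that of 1448291_at did (1.59 ± 0.48, adjusted p = 0.0446), but in 5 of 18 alternative settings alone. These 5 include the setting with every probe set of a gene, which repeats the main fit for a single probe set.

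Stfa3 encodes a stefin A, an inhibitor of cysteine proteases, and lies on chromosome 16. Its signals in Δ(177-191) cells were 74, 61 and 65 at 0 h, 30, 28 and 18 at 6 h, 22, 25 and 27 at 9 h and 36, 29 and 23 at 12 h. In the other lines no array exceeded 13. Stfa3 was bright enough to be tested in the 4 Δ(177-191) groups alone, so its difference of 3.34 ± 0.43 at 0 h follows in part from that choice. It fell in Δ(177-191) cells by 1.32 ± 0.43 at 6 h and 1.33 ± 0.43 at 9 h (limma adjusted p = 0.02 and 0.0176, n = 3 per group). At 12 h the change was -1.12 ± 0.43 (adjusted p = 0.0524). It passed in 3 of 15 alternative settings. These were 12 or 32 added in place of 3 (-0.94 and -0.69, limma adjusted p = 0.000466 and 1.14e-06) and the fit of the Δ(177-191) arrays alone (adjusted p = 0.00295). Camp, the gene of the cathelicidin of secondary granules, ran from 1 to 21 over all 48 arrays.

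In counts, 8 member genes besides Stfa3, which was tested only because of its level in Δ(177-191) cells, were all higher in Δ(177-191) than in vector cells at 0 h, where 10.4% of all probe sets tested were higher, 12.6% lower and 23.0% either. In WT cells 3 were higher, S100a8, S100a9 and Hp, where 4.06% passed (2.07% higher, 2.00% lower), and in K298E cells S100a8 and S100a9 were higher and Lcn2 (-0.98 ± 0.14) and Ltf (-1.21 ± 0.21) lower, where 4.82% passed (2.22% higher, 2.60% lower). The Hp difference in WT cells passed in 6 of 18 alternative settings, counting that with every probe set of a gene, which repeats the main fit here. On 5 genes, Lcn2, S100a8, S100a9, Ltf and Lyz2, and on Stfa3 with the same limit, all 12 Δ(177-191) arrays were above all 36 arrays of the other lines, as were 2.21% of probe sets.

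**Figure D3:**
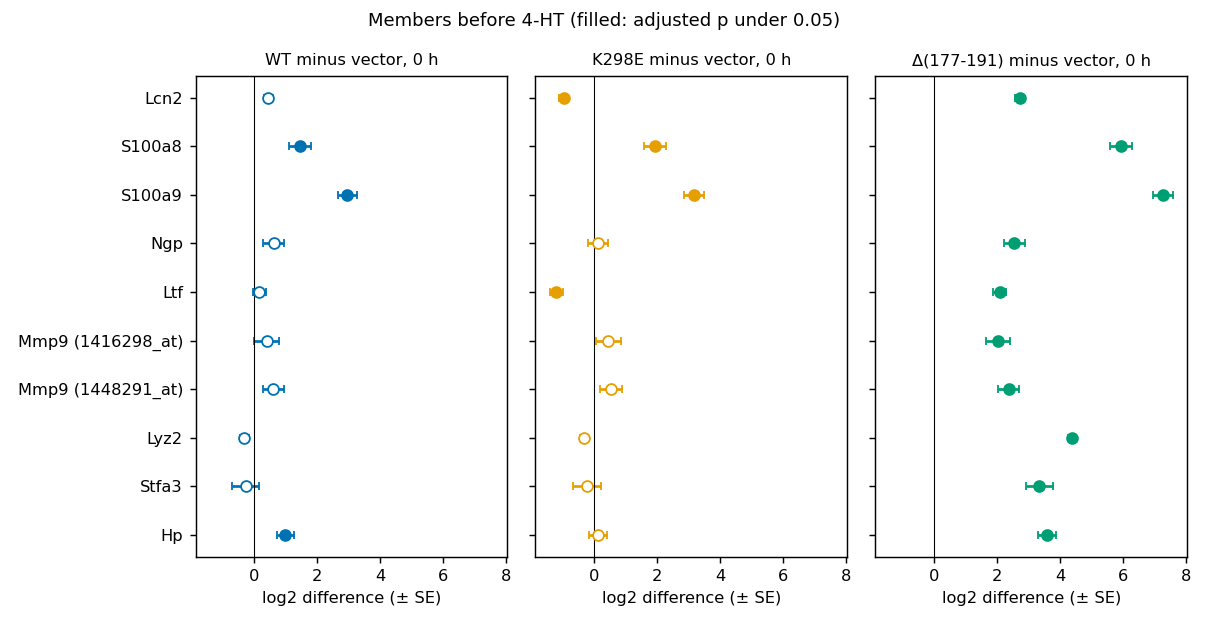
The panels show, for the 10 tested member probe sets, the log2 difference between each fusion line and the vector line at 0 h with its standard error; filled points passed. All 10 points are filled and to the right of 0 in Δ(177-191) cells, while S100a8 and S100a9 are the genes with filled points to the right of 0 in both WT and K298E cells. Stfa3 was tested only because of its level in Δ(177-191) cells.

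From 0 to 12 h, 7 of the 9 genes changed in Δ(177-191) cells, 2 up and 5 down (S100a9, Ngp, Ltf, Mmp9 and Lyz2), where 25.2% of all probe sets passed. In WT cells 5 changed, 2 up and 3 down (S100a9, Ltf and Mmp9), where 25.4% passed. In vector cells 3 changed, 0 up and 3 down (Lcn2, Ltf and Lyz2), where 13.6% passed, and the second Mmp9 probe set, which the count by gene leaves out, also fell. The vector count was 2 without any 1 replicate. In K298E cells 1 changed, upward (Lyz2), where 1.80% passed. The WT count fell to 3 without WT replicate 3 and the K298E count to 0 without K298E replicate 2. In Δ(177-191) cells all 9 treated arrays were below every 0 h array for 6 genes, where 10.0% of probe sets were, and above for 2 genes, where 7.38% were.

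**Figure D4:**
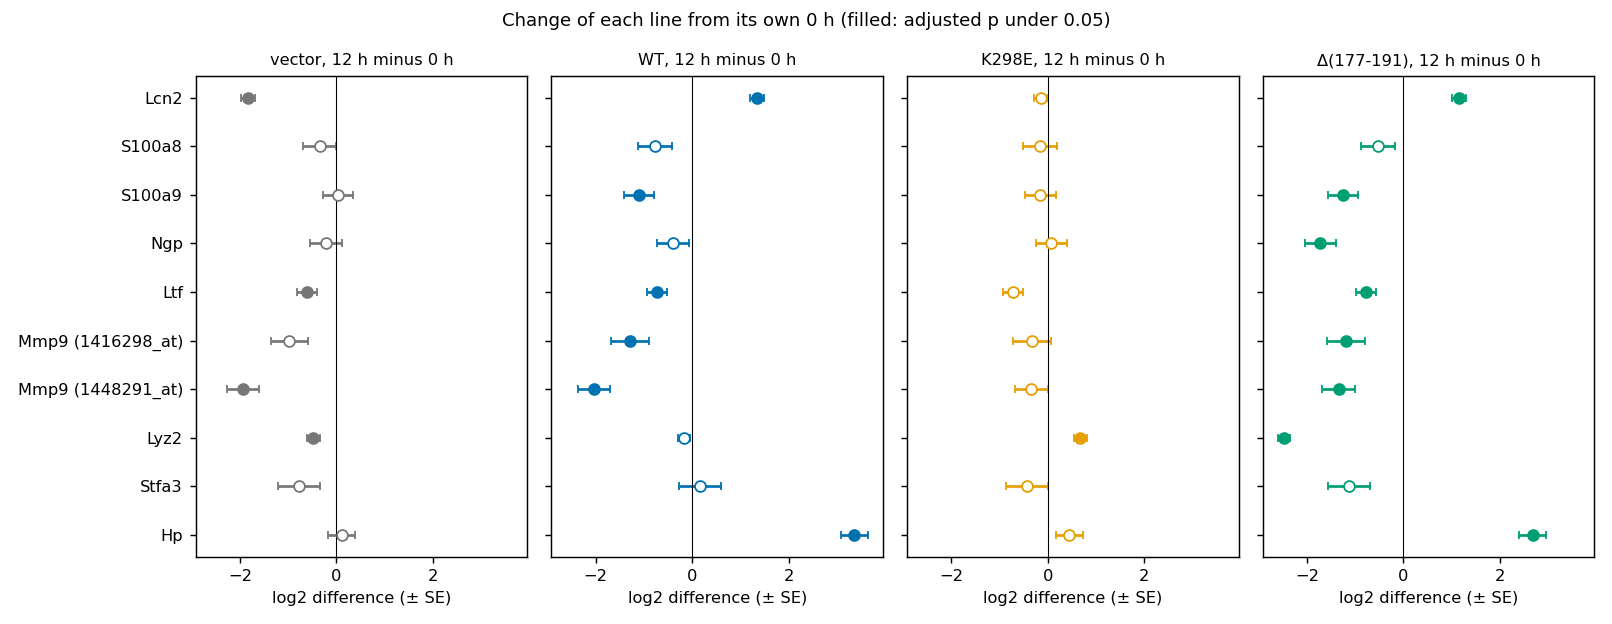
The panels show the log2 change from 0 to 12 h of the 10 tested member probe sets in each line with its standard error; filled points passed. Lcn2 and Hp lie to the right of 0 in WT and Δ(177-191) cells, Lcn2 lies to the left in vector cells, and most other members lie to the left in vector, WT and Δ(177-191) cells.

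Relative to vector at 12 h, 2 of the 9 genes were higher and 0 lower in WT cells (Lcn2 3.18 ± 0.20 and Hp 3.25 ± 0.40), where 5.38% of probe sets passed (2.85% higher, 2.53% lower). With no adjustment of the limma p-values, 2 were higher and 1 lower. In K298E cells Lcn2 and Lyz2 (1.15 ± 0.18) were higher, where 4.20% passed (2.47% higher, 1.73% lower). In Δ(177-191) cells Lcn2 (2.99 ± 0.20) and Hp (2.57 ± 0.40) were higher and Lyz2, Ngp and S100a9 (-1.28 ± 0.44) lower, where 17.1% passed (8.09% higher, 9.01% lower). The S100a9 value passed in 9 of 18 alternative settings, with -1.09 without vector replicate 2. These 9 include the setting with every probe set of a gene, which repeats the main fit here. These comparisons share the vector arrays. Of the differences between the mean changes of WT and K298E cells 3 of 9 passed (13.7% of probe sets), and of those between WT and Δ(177-191) cells also 3 (19.8%).

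Markers of other cell types were measured beside these results. The 14 monocyte and macrophage markers on the array summed to 3217 to 3312 in Δ(177-191) cells at 0 h, against 1245 to 1328 in vector, 2021 to 2168 in WT and 1731 to 1821 in K298E cells. Of the 10 tested, 7 were higher in Δ(177-191) than in vector cells at 0 h, as were 10.4% of all probe sets. Adgre1 (F4/80) was at 1139 in Δ(177-191) and 641 in vector cells, Cd68 at 1675 and 410, and Cd14 at 78.7 and 9.33, while C1qa, C1qc, Ms4a7, Cx3cr1 and Klf4 had means of 1 to 6.33 in Δ(177-191) cells. At 12 h, when Lyz2, Ngp and S100a9 had fallen, the sum in Δ(177-191) cells was 3618 to 4206, with 2 of the 10 tested markers higher and 2 lower than at 0 h. Over all probe sets 25.2% passed in either direction in this comparison. Adgre1 went from 1139 to 2208 and Fcgr1 from 144 to 483, while Cd68 went from 1675 to 908 and Irf8 from 77 to 32.7. The part of monocytic cells in the members' levels was not tested. The 9 mast cell and basophil markers summed to 91 to 92 in Δ(177-191) and 587 to 650 in vector cells at 0 h. Most of the vector sum was Cpa3, at 542 against 42 in Δ(177-191) cells, and the other markers had means of 21 or less in both lines. The 6 lymphoid and 4 eosinophil markers summed to at most 105 and 51 in any group at 0 or 12 h. Of the erythroid and megakaryocyte markers, Pf4 was higher in Δ(177-191) than in vector cells at 0 h (549 against 35.7) and Itga2b lower (265 against 1531), and the 6 markers summed to 838 to 883 and 1514 to 1732.

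Other genes of later granules had been listed beside the members, and 13 of 25 were tested. Relative to vector at 12 h, 6 were higher and 0 lower in WT cells (limma; 7 and 0 with no adjustment), 5 and 0 in K298E cells, and 10 higher and 1 lower in Δ(177-191) cells. Over all probe sets tested 2.85%, 2.47% and 8.09% were higher in these lines, and 2.53%, 1.73% and 9.01% lower. The list medians were 0.88, 0.28 and 1.66, against -0.03, 0.02 and -0.04 over all genes. In WT cells the integrin gene Itgam rose from 133 ± 10.8 to 477 ± 6.00 (relative change 2.78 ± 0.23), and Slpi, an inhibitor of granule proteases, from 873 ± 9.64 to 1827 ± 107 (2.07 ± 0.20). Adam8, a metalloprotease gene, had relative changes of 1.88 ± 0.14 in WT and 2.64 ± 0.14 in K298E cells. Its signal went from 948 ± 7.37 to 1229 ± 56.0 in WT and from 317 ± 16.2 to 716 ± 188 in K298E cells. In vector cells its mean fell from 282 to 97.3, so the relative changes hold this fall as well. Of the 13 genes, 6 were lower and 0 higher in vector cells at 12 h than at 0 h, where 13.6% of all probe sets passed in either direction. In Δ(177-191) cells Chil1, a chitinase-like protein of secondary granules, went from 7.67 ± 5.03 to 114.7 ± 13.5 (3.63 ± 0.69), Slpi was at 2.28 ± 0.20 and the neutrophil antigen gene Cd177 at 1.97 ± 0.69, while Padi4, a histone-citrullinating enzyme gene, was lower (-0.48 ± 0.10). Chil1 and Cd177 were at means of at most 5 in vector cells, so these sizes depend on the added 3. Other genes of later granules thus rose in Δ(177-191) cells in the same 12 h in which 5 of the members fell.

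The other S100 genes are expressed in many cell types. As background to all counts relative to vector given next, 2.85% of all probe sets tested were higher and 2.53% lower in WT cells. In K298E cells the shares were 2.47% and 1.73%, and in Δ(177-191) cells 8.09% and 9.01%. Of 8 tested (14 listed), 3 were lower and 0 higher in WT cells relative to vector at 12 h: S100a4 (-0.93 ± 0.15), S100a10 (-0.93 ± 0.11) and S100a6 (-0.65 ± 0.13). S100a10, the partner of annexin A2, went from 1867 ± 152 to 792 ± 40.9 in WT cells. In K298E cells S100a6 was higher relative to vector (0.45 ± 0.13), with signals of 2501 ± 188 at 0 h and 2556 ± 202 at 12 h. Its mean in vector cells went from 2015 to 1500. In Δ(177-191) cells 0 passed in limma's test, with 1 higher and 4 lower at an unadjusted p under 0.05. Of the stefins and cystatins 4 of 15 were tested: 0 passed in WT cells (3 higher at an unadjusted p under 0.05) and 0 in K298E cells (2 higher, likewise), and in Δ(177-191) cells Cst7, cystatin F, rose from 43.7 ± 4.16 to 487 ± 63.6 (3.90 ± 0.29) and Cstb, stefin B, was higher (1.03 ± 0.13). Stfa2l1, a stefin A gene named here after its values were seen, was at 1346 ± 196 at 0 h and 1691 ± 148 at 12 h in Δ(177-191) cells and at 7 and 6 in vector cells. It did not share the fall of Stfa3, although genes of the stefin A cluster are alike in sequence and their probe sets may read each other. Of the other acute phase genes 4 of 13 were tested and 0 passed in any fusion line by limma, with 0, 0 and 1 at an unadjusted p under 0.05 in WT, K298E and Δ(177-191) cells.

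Of the primary granule genes 8 of 12 were tested, with 3 higher and 1 lower for WT, 1 and 0 for K298E and 0 and 1 for Δ(177-191) relative to vector at 12 h. Over all probe sets tested 2.85% were higher and 2.53% lower for WT, 2.47% and 1.73% for K298E and 8.09% and 9.01% for Δ(177-191). Ctsg, cathepsin G, went from 31 ± 1.73 to 143 ± 11.1 in WT cells (2.41 ± 0.59), while Prtn3, proteinase 3, rose in WT (2.54 ± 0.19) and K298E cells (1.83 ± 0.19) and was lower in Δ(177-191) cells (-0.54 ± 0.19). Mpo, myeloperoxidase, was higher (4.61 ± 0.57) and Serpinb1a, an inhibitor of granule proteases, lower (-1.27 ± 0.17) in WT cells. Among 11 tested regulators and receptors of granulocyte differentiation (12 listed), 6 were higher for Δ(177-191) and 3 each for WT and K298E relative to vector, and 0 were lower. The same shares over all probe sets apply, with that of Δ(177-191) the largest. The repressor gene Gfi1 (1.58 ± 0.14), Runx1 (0.79 ± 0.23) and Spi1, the gene of PU.1 (0.67 ± 0.14), were higher in WT cells. Cebpa (1.28 ± 0.20), Gfi1 (0.65 ± 0.14) and Cebpb (0.51 ± 0.14) were higher in K298E cells relative to vector. The mean signal of Cebpa itself went down from 418 to 254 in K298E cells, and from 190 to 45.7 in vector cells. That of Cebpb went from 635 to 541 and from 608 to 362. Csf3r, the receptor for G-CSF (1.93 ± 0.45), Stat3 (0.95 ± 0.13) and Cebpb (0.87 ± 0.14) had the highest relative changes in Δ(177-191) cells. The mean Cebpb signal itself went from 1332 to 1449 there.

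The members fell into different patterns over the 16 group means. Lcn2 and Hp had a Pearson correlation of 0.95, as did Lyz2 and Stfa3, and S100a8 and S100a9 had 0.98, while Hp and Mmp9 had 0.35 (1416298_at). These values share arrays and lines, and the level of the Δ(177-191) line weighs on all of them. Among all genes tested outside the members, the 5 with the pattern most like that of Lcn2 were Plek, pleckstrin (r = 0.98), the lysosomal membrane protein gene Lamp2 (0.98), the deubiquitinase gene Stambpl1 (0.98), Scamp2, a secretory carrier membrane protein gene (0.98), and Med12l (0.98). The mean Plek signal at 0 h was 288 for vector, 632 for WT, 154 for K298E and 1574 for Δ(177-191), and at 12 h it was 178, 660, 231 and 3452.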

How the data were processed

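The authors deposited MAS5 intensities, linear and rounded to whole numbers; MAS5 is named per the submitters' processing notes, with its version not given in the sources used here. Biotin-labelled cRNA from total RNA was hybridised to 1 array per sample, per the labels' protocols. The arrays already shared 1 scale (trimmed means of 99.999 to 100.02), so no normalization was added. Of 45101 probe sets 64 controls were left out. Platform annotation gave 1 symbol for 34945 of the rest, several for 932 and none for 9160, and older symbols were replaced through gene identifiers in RefSeq's gene table (GRCm38.p6).

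Signals were transformed as log2(signal + 3). The tests covered the 27167 probe sets with a mean log2 value over 4.09 (a signal of 14, the overall median) in 1 or more of the 16 groups. One linear model with a mean per group was used (limma 3.58.1, R 4.3.3), with moderated tests, a variance trend and Benjamini-Hochberg adjustment over all probe sets tested. Where a gene had several probe sets, counts of genes used the one with the highest mean. On simulated arrays for the relative change of WT at 12 h over 27167 probe sets, 78% of true log2 changes of 1 and 100% of those of 2 in brighter probe sets were recovered. These probe sets were picked by brightness in vector cells at 0 h, which of the tested members only Lcn2 and Lyz2 reached. The recovery therefore gives no measure for the other members. The number of arrays limits the precision.

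The members, lists and tests were chosen with earlier results of these data known. Named genes were all members, in each list up to 3 highest and 3 lowest per construct past the threshold in the relative change at 12 h, and the 5 genes most like Lcn2. Genes named beyond these, Lyz1, Stfa2l1, Esr1 and cell markers, are outside that rule. Alternatives were added values of 12 and 32, no filter, quantile normalization, median centring, array weights, the compared lines alone, every probe set of a gene, a replicate block and leaving out replicates.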

Additional observations from a re-analysis of the deposited data

Results flagged for a closer look

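The mean change after 4-HT differed between fusions, by limma's test of the difference itself, for 4 genes (Lcn2, Hp, Lyz2 and Ngp). Over all probe sets tested 13.7% passed for WT minus K298E and 19.8% for WT minus Δ(177-191). WT exceeded K298E cells for Hp by 2.41 ± 0.32 and for Lcn2 by 1.07 ± 0.17, and for Lyz2 the difference was -0.66 ± 0.15 (adjusted p = 3.59e-07, 5.71e-06 and 0.00143). WT exceeded Δ(177-191) cells for Lyz2 by 1.70 ± 0.15, for Hp by 1.11 ± 0.32 and for Ngp by 1.05 ± 0.38 (adjusted p = 5.67e-12, 0.01 and 0.0415). The Ngp call was lost without any 1 replicate of either line. The Lyz2 difference from Δ(177-191) rests on the fall of Lyz2 in Δ(177-191) cells from a high level at 0 h. Of the fusion lines, K298E had the lowest Esr1 signal and Δ(177-191) the highest. The part of this signal in the differences between fusions was not tested.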

How the results depend on the processing

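The 9 calls of Δ(177-191) against vector at 0 h and the calls of Lcn2 and Hp in WT and Δ(177-191) cells, relative to vector and from their own 0 h at 12 h, held in every alternative run. Among the 9, that of Stfa3 follows in part from the filter, since Stfa3 was tested only because of its level in Δ(177-191) cells. Leaving out replicates moved the number of member genes past the threshold as follows: the relative change at 12 h had 1 to 2 in K298E (2 with all arrays) and 3 to 5 in Δ(177-191) (5), the own change at 12 h 2 to 5 in WT (5) and 0 to 2 in K298E cells (1), the mean change of WT minus Δ(177-191) 1 to 2 (3), and WT minus vector at 0 h 1 to 3 (3). The own change of K298E had 2 with array weights, and that of vector 1 with median centring in place of 3. Over single probe sets and comparisons, 1930 of 2040 values kept their direction and side of the threshold or passed in neither. Of the rest, 91 lost a call, 71 of them with replicates left out, and 18 gained one. The 2040 values include the setting with every probe set of a gene. For a single probe set that setting repeats the main fit, so its values could not change. Hp in WT minus Δ(177-191) reversed to -0.14 with 32 added. With the replicate number as a replicate block the counts were 2, 2 and 5 in the relative change of WT, K298E and Δ(177-191), with no count changed by over 1.5 times. Same-numbered arrays of different groups had a mean correlation of 0.01 in their deviations, against -0.01 for other numbers, with 8 of 360 pairs over 0.1, so the numbers were not taken as pairing. As a hint from the data, 25 of 48 arrays were closest to their own number, where an even share over 3 numbers gives 16. Signals near the floor limit Camp, Stfa3, Hp, S100a8, S100a9 and Mmp9 outside the Δ(177-191) line.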
